A study of Arabidopsis thaliana with 9 samples.

Results

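Stems of Arabidopsis thaliana in which the lignin enzyme HCT had been silenced by RNA interference (genotype HCT-RNAi) were compared with wild-type stems, transcript by transcript, on 3 arrays per group, which are 6 of the 9 arrays of the series. The arrays were chosen by their labels and not by any measured value. The other 3 arrays hold stems of ccr-1, a loss-of-function mutant of the lignin enzyme CCR1, and were used only to show where HCT-RNAi differs from a second lignin line. All plants were of the Columbia-0 ecotype and 1.5 months old, had a day of 16 h light and 8 h dark, and gave inflorescence stems for RNA. The sources used here do not give the promoter of the silencing construct, the number of independent lines or the number of plants behind an array. The p-values below therefore rest on array-to-array spread, part of which may be technical.

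As background, lignin stiffens the secondary walls of xylem and fibre cells and is built from monolignols. HCT joins p-coumaroyl-CoA to shikimate in the middle of that pathway. The same p-coumaroyl-CoA is the substrate of chalcone synthase, which opens the path to flavonols and to anthocyanins, the red and purple pigments of stressed stems and leaves. Starch is made in plastids from sugar phosphates and is broken down at night, and its genes follow both sugar supply and the circadian clock. Genes of darkness and sugar starvation are induced when sugar runs short and are repressed by sugar.

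On these Affymetrix ATH1 arrays each transcript is read by several short oligonucleotides, together called a probe set. Values are log2 of the deposited RMA intensities, and changes are log2 differences between group means with their standard error (SE), so that a change of 1 is 2-fold. A call required an adjusted p under 0.05 in limma, with adjustment over 22746 probe sets, and counts below are of calls with at least a 2-fold change unless stated otherwise. By that rule 5.06% of all probe sets were higher and 5.79% were lower in HCT-RNAi than in wild type, and with no minimum fold 32.9% were higher and 27.7% were lower. Of the calls with no minimum fold, 54.24% were higher, or 39.46% after median centring of each array. A transcript was counted as particular to HCT-RNAi only where it was called and at least 2-fold different, in the same direction, from both wild type and ccr-1: 1.49% of probe sets met this as higher (338) and 1.93% as lower (438). The rule does not require that ccr-1 stayed at the wild-type level. Of the 338, 182 were also called higher in ccr-1 than in wild type, with no minimum fold. A further 38 were called lower in ccr-1 and 118 were not called. Of the 438, 264 were also called lower in ccr-1, 90 were called higher and 84 were not called. The comparisons of the lines with wild type share the wild-type arrays, so their values are given side by side. Beyond these counts, which describe the rule, no agreement between them is counted.

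The correlation over all probe sets was 0.997 to 0.999 between replicate arrays and 0.951 to 0.953 between HCT-RNAi and wild-type arrays. The excess of 3' over 5' signal of the actin control was 4.36 ± 0.02 (SD, n = 3) for HCT-RNAi, against 3.98 ± 0.06 for wild type and 3.86 ± 0.04 for ccr-1 (log2). That of GAPDH was 1.78 ± 0.12, 1.46 ± 0.06 and 1.61 ± 0.05 in the same order, and that of ubiquitin was 1.30, 1.27 and 1.25. The part of RNA quality in the results was not tested. The markers of stem xylem and fibre CESA4, CESA7, CESA8, FLA11, LAC4 and XCP1 were called present on every array. Other organs could add RNA to a stem sample. The 9 floral organ genes named here took their names from a table deposited by the authors, whose probe sets were picked for change. Among all probe sets named only that way, 46.6% were called higher, 30.9% by 2-fold or more. All 9 floral organ genes were called higher in HCT-RNAi, 6 by 2-fold or more. Their median was 1.96 (ccr-1, 3.18), and their summed linear intensity was 267 to 283 in wild type, 1019 to 1046 in HCT-RNAi and 2994 to 3130 in ccr-1. The 8 seed storage genes summed to 148 to 159 in wild type and 148 to 151 in HCT-RNAi, against 75262 to 78141 in ccr-1, and the 2 pollen genes to 188 to 211, 231 to 241 and 674 to 776. The part of such organs in the results below was not tested. In whole stems, fewer cells of a type and less RNA per cell cannot be told apart.

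The genes below come from 28 lists of 428 loci, of which 272 had a probe set named here. For 199 of the 272 the name came through the authors' deposited table alone, whose probe sets the authors picked for their change. Among all 1755 probe sets named that way, 30.9% were higher and 36.3% were lower by the 2-fold rule, and 9.0% and 13.2% were particular to HCT-RNAi as higher and lower. Among the 13129 named by the platform annotation, 4.17% were higher and 4.83% lower. The share of changed members in a list is therefore inflated and has to be read against these values. No member of the lists of flavonoid activators and repressors, plastid transport, trehalose, afternoon clock, secondary wall cellulose, secondary wall regulators and jasmonate repressors was named by the platform annotation.

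**Figure D1:**
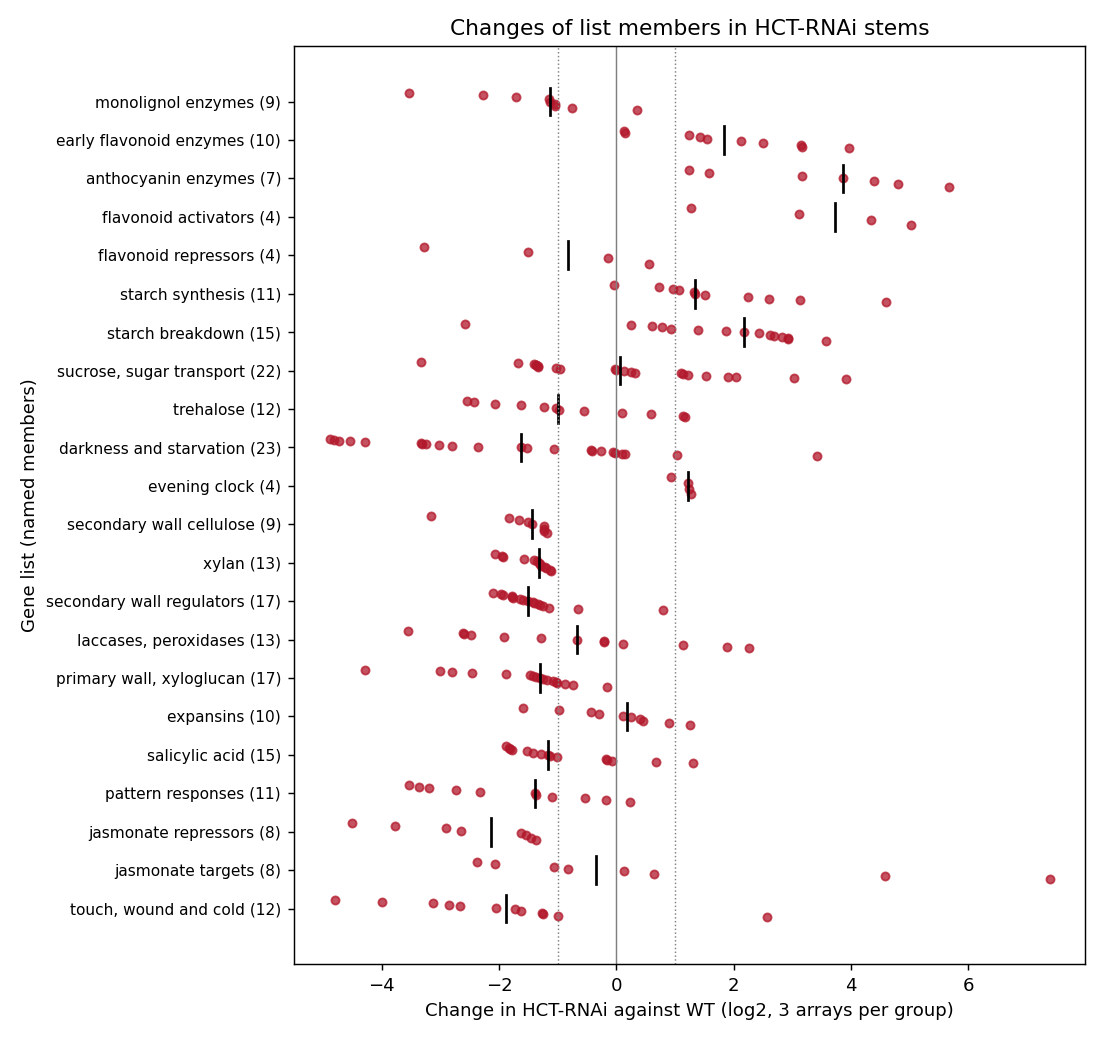
Change of each named list member in HCT-RNAi against wild type (horizontal axis, log2, n = 3 arrays per group) for 22 gene lists, with the number of named members in brackets. Each point is a gene, the black bar is the list's median and dotted lines mark 2-fold. Anthocyanin enzymes lie between 1.24 and 5.67, starch genes lie mostly to the right of 0, and xylan and jasmonate repressor genes lie wholly below -1.

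The silenced gene was measured first. HCT (AT5G48930) read 12.43, 12.54 and 12.52 on the wild-type arrays and 9.00, 9.00 and 8.90 on the HCT-RNAi arrays. The ranges are far apart, and the transcript remained present on all 3 HCT-RNAi arrays. Its change was -3.53 ± 0.05 (adjusted p = 1.33e-13), against -0.55 ± 0.05 in ccr-1. Of the 9 named monolignol genes, the target included, 7 fell at least 2-fold and none rose by as much. Their median was -1.13 (ccr-1, -0.74). The platform annotation named 2 of the 9, HCT and CCR2. The other names came through the authors' table alone, where 36.3% of probe sets were lower by the same rule. PAL4, a phenylalanine ammonia-lyase at the entry of phenylpropanoid metabolism, read 12.13, 12.26 and 12.19 in wild type and 9.78, 9.95 and 10.06 in HCT-RNAi. With HCT it was the other gene of the list that was particular to this line, at -2.27 ± 0.08 against wild type and -1.30 ± 0.08 against ccr-1. The next enzymes after HCT, CYP98A3 (the 3-hydroxylase of coumaroyl shikimate) and CSE (caffeoyl shikimate esterase), fell by 1.13 and 1.14 on the log2 scale. FAH1, ferulate 5-hydroxylase, fell by 1.04, less than in ccr-1, where it fell by 1.52. CCR1 was called lower at -0.76 ± 0.06, and CCR2, a second reductase, was called higher at 0.36 ± 0.05, both under 2-fold.

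Flavonoid and anthocyanin transcripts were higher in HCT-RNAi. All 7 named anthocyanin genes rose at least 2-fold, with a median of 3.86 (ccr-1, 0.88), and 6 of them were particular to HCT-RNAi. Of the 10 named early genes, which serve flavonols too, 8 rose at least 2-fold, with a median of 1.84 (ccr-1, 1.44), and 3 were particular to the line. Of the 4 early genes named by the platform annotation, 2 rose and 2 were not called, with a median of 0.69 and none particular to the line, while all 5 anthocyanin genes named that way rose and were particular to it. The median over all probe sets was -0.01 against wild type. Floral organ markers were higher on the same arrays, with the summed levels given above, and their part was not tested.

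Regulators of the pathway changed too. PAP1, a MYB activator of anthocyanin genes, read 6.50, 6.48 and 6.52 in wild type and 11.52, 11.55 and 11.51 in HCT-RNAi, with 9.30, 9.36 and 9.30 in ccr-1. The 3 groups are separate, HCT-RNAi being highest. Its relative PAP2 (MYB90) read 5.71, 5.93 and 6.13 in wild type, 10.24, 10.19 and 10.36 in HCT-RNAi and 6.53, 6.32 and 6.53 in ccr-1. Here ccr-1 lay close to wild type: PAP2 rose by 4.34 ± 0.10 against wild type (adjusted p = 2.16e-12) and was 3.80 ± 0.10 above ccr-1 (adjusted p = 1.2e-11). TT8, a bHLH partner of these MYB proteins, had means of 4.20 in wild type, where no array called it present, and 7.32 in HCT-RNAi, at least 8.7-fold higher (adjusted p = 1.08e-12). The other named bHLH partner, EGL3, rose by 1.28 ± 0.08. Among the repressors, the nitrogen-responsive LBD38 fell from 9.88, 9.78 and 9.94 to 6.53, 6.71 and 6.50, a change of -3.28 ± 0.07. LBD37 fell by 1.50 ± 0.06 in HCT-RNAi and was called higher in ccr-1, at 0.43 ± 0.06, so that the lines differed by -1.93 ± 0.06. Their relative LBD39, at -0.14 ± 0.08, was not called against wild type (adjusted p = 0.138). All 3 LBD genes were called at least 2-fold below ccr-1. MYB4, a repressor of phenylpropanoid genes, was called higher in HCT-RNAi at 0.56 ± 0.09 and lower in ccr-1 at -0.78 ± 0.09.

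Among the early enzymes, CHS, chalcone synthase, read 9.78, 9.73 and 9.70 in wild type, 12.96, 12.88 and 12.87 in HCT-RNAi and 11.66, 11.72 and 11.77 in ccr-1. It rose by 3.17 ± 0.06 in HCT-RNAi and by 1.98 ± 0.06 in ccr-1. F3'H, which sets the hydroxylation of the B ring, rose by 3.97 ± 0.09, and F3H, flavanone 3-hydroxylase, by 3.14 ± 0.06. FLS1, the flavonol synthase, stood apart from these: at 1.42 ± 0.05 above wild type it was 0.35 ± 0.05 below ccr-1 (adjusted p = 0.000122). The flavonol rhamnosyltransferase UGT78D1 was not called at 0.15 ± 0.07 (adjusted p = 0.0946), nor was the arabinosyltransferase UGT78D3 at 0.12 ± 0.08 (adjusted p = 0.222).

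Within the anthocyanin branch, DFR, the reductase that opens it, read 6.69, 6.40 and 6.29 in wild type, 12.10, 12.17 and 12.11 in HCT-RNAi and 9.86, 9.86 and 9.84 in ccr-1. The HCT-RNAi arrays were higher than all others. The change was 5.67 ± 0.09 (adjusted p = 1.1e-13), with 2.27 ± 0.09 over ccr-1. TT19, the glutathione transferase that carries anthocyanin towards the vacuole, rose by 4.80 ± 0.06. The 3 largest differences from ccr-1 were in steps that decorate the pigment. The malonyltransferase 5MAT read 5.45, 5.53 and 5.29 in wild type and 5.76, 5.68 and 5.76 in ccr-1, but 8.52, 8.63 and 8.61 in HCT-RNAi. It rose by 3.16 ± 0.07 and was 2.85 ± 0.07 above ccr-1. The anthocyanin glucosyltransferase UGT75C1 and the xylosyltransferase UGT79B1 rose by 3.86 ± 0.09 and 4.40 ± 0.10, and lay 2.98 ± 0.09 and 2.83 ± 0.10 above ccr-1. UGT78D2, the 3-O-glucosyltransferase, rose by 1.57 ± 0.05, against 0.15 ± 0.05 in ccr-1. The smallest rise was in BGLU10, an acyl-glucose-dependent glucosyltransferase, at 1.24 ± 0.05, the member of the branch that was not 2-fold above ccr-1.

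**Figure D2:**
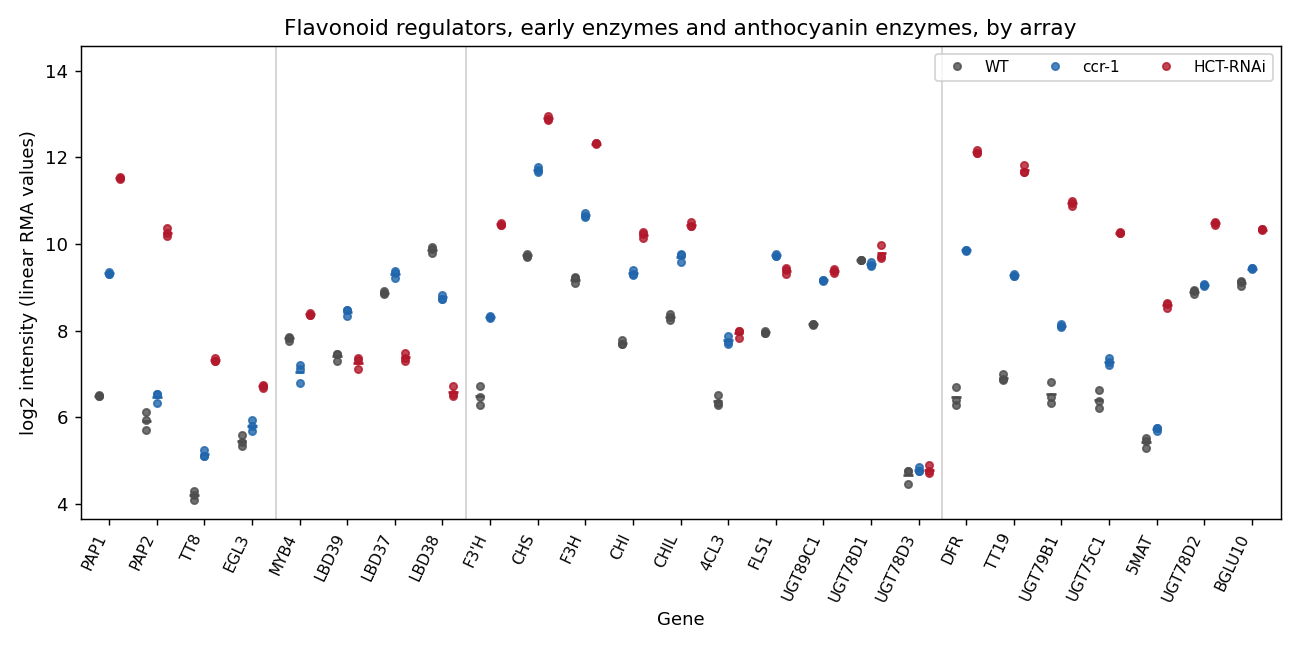
Log2 intensity (vertical axis) of each flavonoid regulator and enzyme (horizontal axis) on each array, with points for arrays and short bars for group means; grey lines part activators, repressors, early enzymes and anthocyanin enzymes. HCT-RNAi (red) is highest for every activator and every anthocyanin enzyme, and lowest for LBD37 and LBD38.

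The largest rise of any named transcript was in GPT2 (AT1G61800), the glucose 6-phosphate translocator that brings sugar phosphate into plastids. It read 5.04, 4.87 and 5.21 in wild type, with 8.14, 8.31 and 8.32 in ccr-1 and 12.44, 12.44 and 12.57 in HCT-RNAi. No group overlaps another. GPT2 was 7.44 ± 0.09 higher than in wild type (adjusted p = 2.22e-14) and 4.23 ± 0.09 higher than in ccr-1. PPT2, a phosphoenolpyruvate translocator of the same membrane, fell by 2.03 ± 0.06.

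Genes of starch synthesis rose in HCT-RNAi and had no common direction in ccr-1. Of 11 named, 8 rose at least 2-fold in HCT-RNAi, with a median of 1.35, and the same 8 were particular to the line. All 11 were at least 2-fold above ccr-1, a call made for 2.97% of all probe sets. The names of 8 of them came through the authors' table alone, where the call was made for 17.8% of probe sets. The median of ccr-1 against wild type was -0.02. APL4, a large subunit of ADP-glucose pyrophosphorylase, which makes the sugar donor of starch, read 4.84, 5.03 and 4.93 in wild type, with 5.88, 6.02 and 5.84 in ccr-1 and 9.45, 9.46 and 9.66 in HCT-RNAi. It was the largest rise of the list at 4.59 ± 0.08. APL3, another large subunit, read 8.08, 8.16 and 8.19 in wild type, with 8.43, 8.46 and 8.36 in ccr-1 and 10.70, 10.70 and 10.85 in HCT-RNAi, a rise of 2.61 ± 0.06. APL2 rose by 1.07 ± 0.09. APL1, a further large subunit, was the exception: at -0.04 ± 0.07 it was not called (adjusted p = 0.676) and it was lower in ccr-1 at -1.16 ± 0.07.

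The branching enzyme gene SBE2.1 rose by 3.13 ± 0.09 and the isoamylase subunit gene ISA2 by 2.24 ± 0.08. GBSS1, the granule-bound synthase that makes amylose, read 11.10, 11.07 and 10.97 in wild type and 12.52, 12.56 and 12.61 in HCT-RNAi, a rise of 1.51 ± 0.06, while ccr-1 was lower than wild type at -0.23 ± 0.06. SS3, a starch synthase, rose by 1.35 ± 0.05 and PGM1, the plastid phosphoglucomutase, by 1.32 ± 0.06, and neither was called in ccr-1. SBE2.2 and SS4 were called higher in HCT-RNAi, at 0.96 ± 0.06 and 0.72 ± 0.08, and lower in ccr-1, at -0.77 ± 0.06 and -0.29 ± 0.08.

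Genes of starch breakdown rose beside those of synthesis. Of 15 named, 10 rose at least 2-fold and 1 fell, with a median of 2.18 (ccr-1, 0.21). By the rule for particular transcripts, 8 were higher and 1 was lower. Of the 3 named by the platform annotation, 2 rose at least 2-fold, and both were particular to the line. The other names came through the authors' table alone, where 30.9% of probe sets were higher by 2-fold and 9.0% were particular as higher. ISA3, a debranching enzyme, read 6.84, 6.83 and 6.92 in wild type, with 6.68, 6.83 and 6.95 in ccr-1 and 10.49, 10.44 and 10.37 in HCT-RNAi. The wild-type and ccr-1 arrays overlap while HCT-RNAi lies 3.57 ± 0.07 above the former and 3.61 ± 0.07 above the latter. SEX4, a glucan phosphatase, read 8.21, 8.13 and 8.07 in wild type, with 8.27, 8.38 and 8.38 in ccr-1 and 11.05, 11.02 and 11.12 in HCT-RNAi, a rise of 2.92 ± 0.06. The glucan phosphorylases PHS1, in the plastid, and PHS2, in the cytosol, rose by 2.92 ± 0.08 and 2.68 ± 0.06.

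The disproportionating enzymes DPE1 and DPE2, which process malto-oligosaccharides and maltose, rose by 2.83 ± 0.07 and 2.62 ± 0.07. GWD1, which phosphorylates starch at the start of breakdown, read 9.05, 9.04 and 9.02 in wild type and 10.84, 11.04 and 10.85 in HCT-RNAi, and rose by 1.88 ± 0.08. Its partner PWD rose by 2.18 ± 0.06. The maltose exporter gene MEX1 and the beta-amylase gene BAM5 rose by 1.39 ± 0.05 and 2.43 ± 0.08, close to their changes in ccr-1 of 1.03 and 2.49. BAM9, which encodes a beta-amylase relative, went against the list: it read 10.06, 10.12 and 10.17 in wild type and 7.48, 7.59 and 7.54 in HCT-RNAi, and fell by 2.58 ± 0.06. The amylase genes BAM3, BAM6 and AMY3 were called higher in HCT-RNAi, at 0.25, 0.61 and 0.93, and lower in ccr-1, at -0.92, -0.88 and -0.71. AMY1 was called higher at 0.77 ± 0.06.

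Genes of sucrose metabolism and sugar transport split. Of 22 named, 8 rose and 8 fell at least 2-fold, with a median of 0.06. Of the 10 named by the platform annotation, 5 rose and 3 fell, with a median of 0.64. The sucrose synthase gene SUS3 rose by 3.03 ± 0.08 and the sucrose phosphate synthase gene SPS1F by 1.22 ± 0.10. The hexose uptake transporter gene STP1 read 11.92, 11.89 and 12.01 in wild type, with 11.02, 11.07 and 11.13 in ccr-1 and 8.52, 8.68 and 8.63 in HCT-RNAi. At -3.33 ± 0.06 it was the largest fall of the list, and it lay 2.46 below ccr-1 on the log2 scale (adjusted p = 8.99e-12). Vacuolar sugar transporters went both ways: TMT2 rose by 1.90 ± 0.06, TMT1 fell by 1.34 ± 0.07, and the fructose exporters SWEET16 and SWEET17 fell by 1.68 ± 0.07 and 1.34 ± 0.06. The transporter genes SWEET4 and SWEET15 rose by 3.92 ± 0.06 and 2.03 ± 0.07, but both lay below their level in ccr-1. The vacuolar invertase gene VI2 fell by 1.02 ± 0.06 and was not called in ccr-1 (0.02 ± 0.06, adjusted p = 0.792).

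Trehalose 6-phosphate is a signal of sucrose status, made by TPS1. TPS1 read 7.45, 7.47 and 7.37 in wild type, with 7.28, 7.47 and 7.32 in ccr-1 and 8.70, 8.59 and 8.52 in HCT-RNAi, and rose by 1.18 ± 0.07. Its sugar-repressed relatives TPS8, TPS9, TPS10 and TPS11 fell by 2.06, 2.55, 1.23 and 2.42 on the log2 scale. TPS8, TPS9 and TPS11 were particular to the line. TPS5, another relative, was called higher in HCT-RNAi at 0.59 ± 0.05 and lower in ccr-1 at -0.60 ± 0.05. Of the trehalose phosphate phosphatases, which remove the signal, TPPA fell by 1.62 ± 0.06, TPPJ rose by 1.14 ± 0.08 and TPPI was not called at 0.09 ± 0.08 (adjusted p = 0.32, on 1 present call in HCT-RNAi and none in wild type). TPPB, not called present on any HCT-RNAi array, had means of 6.48 and 5.45, at least 2.04-fold lower (adjusted p = 1.89e-08). In all, 6 of the 12 named trehalose genes fell and 2 rose at least 2-fold, with a median of -1.001 (ccr-1, -0.62). All 12 names came through the authors' table alone, where 36.3% of probe sets were lower and 30.9% higher by the same rule.

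Many of the named genes induced by darkness and sugar starvation fell. Of 23 named, 14 fell at least 2-fold and 2 rose, with a median of -1.63 (ccr-1, -0.33), and all 14 were particular to HCT-RNAi. This rests on names from the table selected for change: of the 8 named by the platform annotation, 2 fell at least 2-fold (AT3G15450 and AKINBETA1), none rose and 4 were not called, with a median of -0.16. DIN10, a raffinose synthase relative named for its induction in darkness, read 11.11, 11.10 and 11.17 in wild type, with 10.16, 10.16 and 10.22 in ccr-1 and 6.86, 6.52 and 6.41 in HCT-RNAi. The HCT-RNAi arrays were lowest throughout, with a change of -4.53 ± 0.09 (adjusted p = 9.93e-13) and -3.59 ± 0.09 against ccr-1. AT3G15450, an aluminium-induced protein gene with sugar-repressed expression, read 12.83, 12.69 and 12.75 in wild type and 8.20, 7.58 and 7.83 in HCT-RNAi, a change of -4.88 ± 0.12. The wall side-chain glycosidase genes of this list fell with it: BXL2 and BXL1, beta-xylosidases, by 4.73 and 3.24, and the beta-galactosidase genes BGAL4 and BGAL1 by 4.28 and 3.31 on the log2 scale. BXL1 read 12.33, 12.31 and 12.28 in wild type, with 12.03, 12.10 and 12.20 in ccr-1 and 9.10, 9.14 and 8.95 in HCT-RNAi, so that only the HCT-RNAi arrays left the wild-type level by more than 2-fold.

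Regulators of the starvation response were among these falls. BZIP1 read 10.32, 10.37 and 10.47 in wild type, with 9.58, 9.58 and 9.65 in ccr-1 and 6.94, 7.06 and 7.14 in HCT-RNAi, and fell by 3.34 ± 0.07. BZIP63, a target of the energy sensor kinase SnRK1, fell by 2.80 ± 0.06, and AKINBETA1, a subunit of that kinase, by 3.02 ± 0.06. The BTB-domain scaffold gene BT5 fell by 4.82 ± 0.09. BT2, a relative that responds to sugar and nitrate, had a mean of 6.57 in wild type, against 4.22 in HCT-RNAi, where no array called it present, and was at least 5.12-fold lower (adjusted p = 3.35e-10).

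Not all starvation genes followed. DIN2, a beta-glucosidase gene, had means of 4.10 in wild type, where it was not called present, and 7.53 in HCT-RNAi, at least 10.8-fold higher (adjusted p = 2.43e-12). ASN1, an asparagine synthetase gene, read 6.10, 6.01 and 5.92 in wild type and 7.04, 7.07 and 7.04 in HCT-RNAi, a rise of 1.04 ± 0.06. Both were higher still in ccr-1, where they rose by 4.73 and 2.81. DIN4 and BZIP53 were called lower in HCT-RNAi, at -0.41 ± 0.07 and -0.26 ± 0.06, and higher in ccr-1, at 0.79 and 0.33. Of the genes of leucine and lysine breakdown, which are used when sugar is short, MCCA was called lower at -0.43 ± 0.06, and IVD, ETFQO, D2HGDH and MCCB had changes of 0.09, -0.06, -0.03 and 0.15 that were not called.

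**Figure D3:**
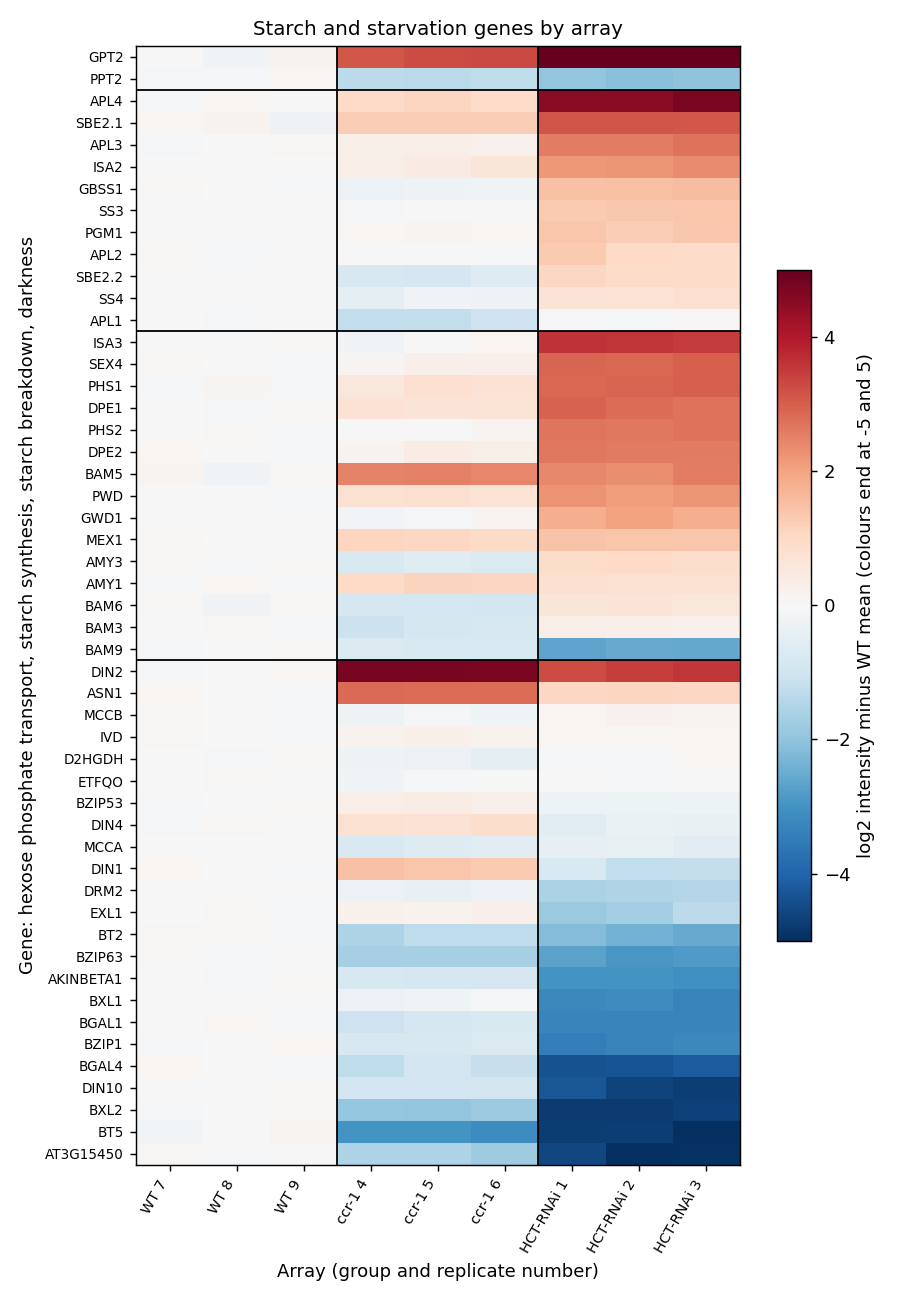
Log2 intensity minus the wild-type mean (colour, red higher and blue lower, ending at -5 and 5) of each gene (rows) on each of the 9 arrays (columns); black lines part plastid transport, starch synthesis, starch breakdown and darkness genes, and the 3 groups. Most starch rows are red and most darkness rows blue in the HCT-RNAi columns, while BAM9 is blue and DIN2 and ASN1 are red there.

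Clock transcripts were compared because starch genes follow the time of day. The sources used here do not give the hour of harvest, and its part in any result was not tested. Of 11 listed evening genes 4 had a name here, and 1 of these, GI, was named by the platform annotation. All 4 were called higher, 3 by 2-fold or more, and their median was 1.23 (ccr-1, 0.36). Among probe sets named through the authors' table alone, 46.6% were called higher with no minimum fold and 30.9% by 2-fold. GI, a regulator of flowering and of the clock, read 7.56, 7.55 and 7.61 in wild type, with 7.87, 7.78 and 7.87 in ccr-1 and 8.86, 8.78 and 8.74 in HCT-RNAi. The HCT-RNAi arrays were highest, with a rise of 1.22 ± 0.06 against wild type and 0.95 ± 0.06 against ccr-1. ELF4 and ELF3, members of the evening complex, were at 1.23 ± 0.10 and 0.94 ± 0.06, and GRP7, a clock-controlled RNA-binding protein gene, at 1.27 ± 0.10. ELF3 was not called in ccr-1 (-0.08 ± 0.06, adjusted p = 0.332). The afternoon gene PRR5 rose by 1.198 ± 0.14, from 4.86, 5.29 and 4.77 to 6.27, 6.08 and 6.15. PRR7 was called higher in HCT-RNAi at 0.29 ± 0.09 (adjusted p = 0.0182) and lower in ccr-1 at -0.94 ± 0.09.

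Only 2 of 17 listed morning genes had a name here. RVE1, a morning MYB factor that links the clock to auxin, read 9.08, 8.94 and 9.11 in wild type, with 8.65, 8.68 and 8.72 in ccr-1 and 7.29, 7.23 and 7.33 in HCT-RNAi, and fell by 1.76 ± 0.06. Its relative RVE6 was called higher at 0.49 ± 0.07. Of the outputs of day length, the DOF repressors of flowering CDF5 and CDF2 fell by 1.83 ± 0.08 and 1.49 ± 0.08, below their level in ccr-1 by 1.01 and 0.81. BBX18, a B-box gene, rose by 1.05 ± 0.07, which median centring took below 2-fold.

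**Figure D4:**
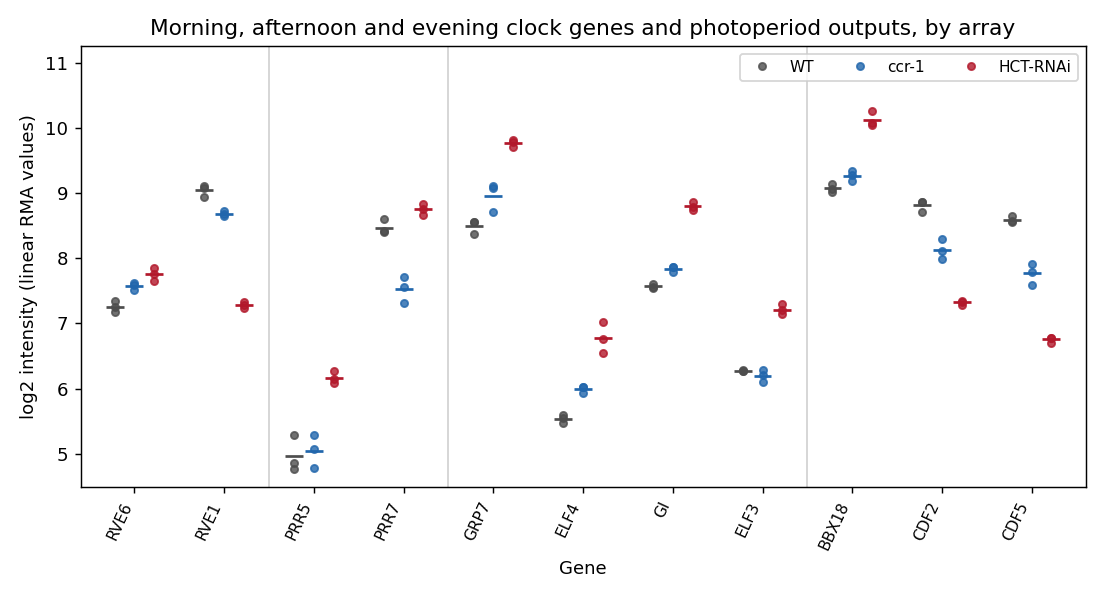
Log2 intensity (vertical axis) on each array of clock genes and outputs of day length (horizontal axis), with bars at group means; grey lines part morning, afternoon, evening and output genes. HCT-RNAi (red) is highest for GI, ELF3, ELF4, GRP7, PRR5 and BBX18 and lowest for RVE1, CDF2 and CDF5, each group spanning less than the gap to wild type.

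Secondary wall transcripts fell, by amounts near those in ccr-1. All 9 named genes of secondary wall cellulose fell at least 2-fold, with a median of -1.43 (ccr-1, -1.34). Of these, 1, FLA12, was particular to HCT-RNAi. All 9 names came through the authors' table alone, where 36.3% of probe sets were lower by the same rule. CESA7, a cellulose synthase subunit of secondary walls, read 11.95, 11.96 and 11.97 in wild type, 10.06, 10.20 and 10.15 in HCT-RNAi and 9.84, 10.02 and 10.07 in ccr-1. Both lines lie below wild type and overlap each other, and the difference between them was not called at 0.16 ± 0.07 (adjusted p = 0.0607). CESA8 and CESA4 fell by 1.24 each, and CESA4 was 0.44 ± 0.11 above ccr-1. FLA12, a fasciclin-like arabinogalactan protein gene of fibres, read 13.19, 13.20 and 13.23 in wild type, with 11.88, 11.86 and 11.86 in ccr-1 and 9.99, 10.07 and 10.08 in HCT-RNAi, and fell by 3.16 ± 0.05.

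All 13 named xylan genes fell at least 2-fold, with a median of -1.31 (ccr-1, -1.23), and none was particular to the line. The platform annotation named 3 of the 13. The largest falls were in the xylan methyltransferase gene GXM3, by 2.06 ± 0.06, in GUX1, which adds glucuronic acid, by 1.95 ± 0.07, and in PARVUS by 1.93 ± 0.06. GXM2 came nearest to a difference between the lines, at -0.98 ± 0.05 against ccr-1. RWA1, an acetylation gene, went the other way and was 0.63 ± 0.06 above ccr-1.

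Of 17 named regulators of the secondary wall, 15 fell at least 2-fold, with a median of -1.51 (ccr-1, -1.50). All 17 names came through the authors' table alone, where 36.3% of probe sets were lower by the same rule. The NAC master regulator SND1 read 10.31, 10.43 and 10.42 in wild type, 8.54, 8.61 and 8.73 in HCT-RNAi and 8.91, 8.86 and 8.91 in ccr-1, and fell by 1.76 ± 0.06. The lignin activators MYB20, MYB63 and MYB58 fell by 2.104, 1.59 and 1.42 on the log2 scale. MYB61 was particular to HCT-RNAi, with -1.93 ± 0.06 against wild type and -1.14 ± 0.06 against ccr-1. XND1, a negative regulator of xylem formation, was called higher at 0.80 ± 0.07, the member of the list that was higher. Markers of xylem cell death also differed between the lines: the 4 named summed to 2539 to 2872 in wild type, 1131 to 1202 in HCT-RNAi and 2793 to 2893 in ccr-1. Among them the nuclease gene RNS3 and the metacaspase gene MC9 were 1.51 ± 0.06 and 1.41 ± 0.06 below ccr-1 on the log2 scale.

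The enzymes that polymerise lignin were divided. Of 13 named laccases and peroxidases, 6 fell and 3 rose at least 2-fold, with a median of -0.67 (ccr-1, -0.28). The balance turned among the 6 named by the platform annotation, of which 3 rose and 1 fell, with a median of 0.63. LAC4, a main stem laccase, read 12.37, 12.31 and 12.19 in wild type, 9.84, 9.78 and 9.80 in HCT-RNAi and 10.28, 10.14 and 10.17 in ccr-1, and fell by 2.48 ± 0.06. PRX71, PRX64 and LAC10 fell by 3.54, 2.61 and 2.60 and were particular to HCT-RNAi. PRX71 read 8.02, 8.12 and 8.14 in wild type, with 6.80, 6.93 and 6.78 in ccr-1 and 4.57, 4.62 and 4.46 in HCT-RNAi. The peroxidase genes PRX66, PRX52 and PRX25 rose by 2.26, 1.89 and 1.13, and rose in ccr-1 too, by 2.78, 1.79 and 1.63. LAC5 and PRX3 were called lower in HCT-RNAi, at -0.67 ± 0.08 and -0.21 ± 0.07, and higher in ccr-1, at 0.50 and 1.27.

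Xyloglucan and primary wall genes were lower, several of them also against ccr-1. Of 17 named, 14 fell at least 2-fold, with a median of -1.29 (ccr-1, -0.82), and 8 were particular to HCT-RNAi. All 6 named by the platform annotation fell at least 2-fold, 3 of them particular to the line. XTH enzymes cut and rejoin the xyloglucan that ties cellulose microfibrils. XTH4 read 12.79, 12.69 and 12.70 in wild type, with 12.46, 12.41 and 12.41 in ccr-1 and 10.31, 10.35 and 10.16 in HCT-RNAi. It fell by 2.45 ± 0.06 (adjusted p = 4.82e-12) and lay 2.16 below ccr-1 on the log2 scale (adjusted p = 2.81e-11). XTH18 and XTH15 fell by 4.29 ± 0.09 and 3.00 ± 0.09. XTH19 and XTH16 fell by 2.79 ± 0.09 and 1.36 ± 0.10 in HCT-RNAi and were called higher in ccr-1, at 0.34 and 0.44. The xylosyltransferase gene XXT1, which builds xyloglucan, fell by 1.47 ± 0.06 and lay 1.15 below ccr-1. XTH25 was not called (-0.16 ± 0.10, adjusted p = 0.195).

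The cellulose synthases of the primary wall lay near their level in ccr-1. CESA2 and CESA5 fell by 1.25 and 1.03, CESA6 and CESA3 were called lower at -0.88 and -0.74, and the differences from ccr-1 of these 4 genes lay between 0.15 and 0.32. Among 10 named expansins, which loosen walls, 1 rose and 1 fell at least 2-fold. EXPA8 read 8.29, 8.35 and 8.22 in wild type, 6.58, 6.69 and 6.82 in HCT-RNAi and 10.04, 10.12 and 10.18 in ccr-1. It fell by 1.59 ± 0.07 in HCT-RNAi and rose by 1.82 ± 0.07 in ccr-1, a difference of -3.41 ± 0.07 (adjusted p = 1.51e-12). EXPA5 and EXPB1 were called lower in HCT-RNAi, at -0.97 and -0.30, and higher in ccr-1, at 0.62 and 0.36, and EXPA4 was called higher in HCT-RNAi at 0.41 and lower in ccr-1 at -0.59. EXPA10 rose by 1.26 ± 0.06, and EXPB3 was not called at 0.11 ± 0.06 (adjusted p = 0.126).

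Of the 3 named pectin genes, PGIP2, an inhibitor of fungal polygalacturonases, fell by 2.55 ± 0.07 and was particular to the line, and PME35, a pectin methylesterase of the stem, fell by 1.93 ± 0.07. ADPG1, a polygalacturonase of dehiscence zones, was not called present in wild type and in HCT-RNAi was higher at least 35.1-fold (means 3.53 and 8.67, adjusted p = 1.98e-13). In ccr-1 it lay 1.37 ± 0.08 above that level.

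**Figure D5:**
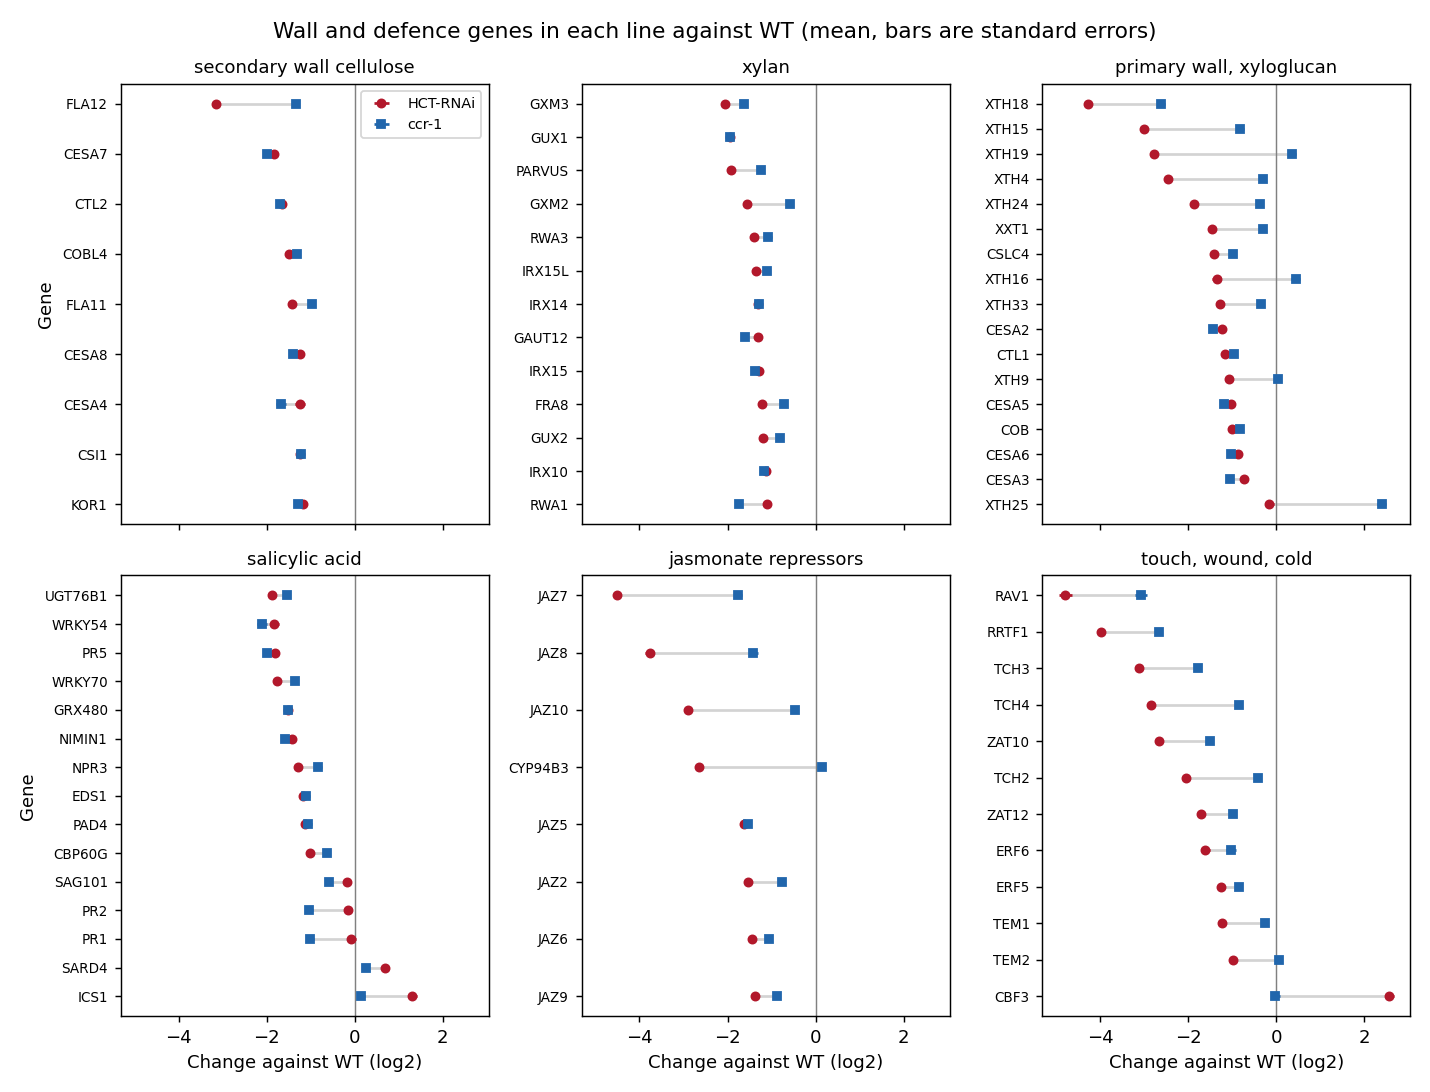
Change against wild type (horizontal axis, log2; bars are standard errors, n = 3 arrays per group) of each gene (vertical axis) in HCT-RNAi (red circles) and ccr-1 (blue squares) for 6 lists; both use the same wild-type arrays. The symbols lie less than 1 apart for every xylan gene, and more than 1 apart for XTH19, XTH4, JAZ7, CYP94B3 and CBF3.

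Many named defence transcripts of the salicylic acid and pattern lists were lower. Of 15 named salicylic acid genes, 10 fell and 1 rose at least 2-fold, with a median of -1.17 (ccr-1, -1.05). Among the 4 named by the platform annotation, 2 fell and none rose by as much, with a median of -0.84. The marker PR5 read 9.89, 9.95 and 9.95 in wild type, 8.06, 8.19 and 8.09 in HCT-RNAi and 7.79, 7.98 and 8.05 in ccr-1, and fell by 1.81 ± 0.07. WRKY70, a factor of salicylic acid signalling, fell by 1.77 ± 0.07, and EDS1 and PAD4, which act upstream of it, by 1.17 and 1.13. ICS1, the enzyme of salicylic acid synthesis, went against the list: it read 6.14, 6.21 and 6.05 in wild type, with 6.10, 6.23 and 6.52 in ccr-1 and 7.39, 7.38 and 7.57 in HCT-RNAi. The ICS1 rise of 1.31 ± 0.10 was particular to the line. PR1 and PR2 were not called against wild type (-0.07 ± 0.09 and -0.15 ± 0.10, adjusted p = 0.527 and 0.188), but were 0.94 ± 0.09 and 0.88 ± 0.10 above ccr-1. SARD4, of pipecolic acid synthesis, was called higher at 0.68 ± 0.07.

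Of 11 named genes of the response to microbial patterns, 8 fell at least 2-fold and none rose, with a median of -1.38 (ccr-1, -1.22). Of the 4 named by the platform annotation, 2 fell and 2 were not called, with a median of -0.78. FLS2, the flagellin receptor, read 8.54, 8.45 and 8.75 in wild type, 5.47, 5.46 and 5.23 in HCT-RNAi and 6.02, 6.22 and 6.35 in ccr-1, and fell by 3.19 ± 0.10. WRKY40 and WRKY18, factors induced by elicitors, fell by 3.54 and 3.36 and were particular to HCT-RNAi, at -1.25 ± 0.08 and -1.15 ± 0.08 against ccr-1. WRKY53, SYP122 and WRKY22 fell by 2.73, 2.32 and 1.38. The oxidase gene RBOHD was called lower by less in HCT-RNAi (-0.53 ± 0.06) than in ccr-1 (-1.12 ± 0.06), and the difference of 0.59 ± 0.06 was called (adjusted p = 1.77e-06). The receptor EFR and the kinase BIK1 were not called, at -0.18 ± 0.10 and 0.23 ± 0.10 (adjusted p = 0.137 and 0.0583).

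Jasmonate genes did not move as a body. All 8 named repressors and hormone-inactivating genes fell at least 2-fold, with a median of -2.13 (ccr-1, -0.96). Of these, 4 were particular to HCT-RNAi. All 8 names came through the authors' table alone, where 36.3% of probe sets were lower by 2-fold and 13.2% were particular as lower. JAZ10, a repressor gene that jasmonate induces, read 9.45, 9.38 and 9.57 in wild type, with 9.03, 9.04 and 8.90 in ccr-1 and 6.52, 6.60 and 6.59 in HCT-RNAi. It fell by 2.90 ± 0.06 and lay 2.42 below ccr-1 on the log2 scale. JAZ7 and JAZ8 fell by 4.51 ± 0.08 and 3.77 ± 0.11. CYP94B3, which oxidises the active hormone, read 8.68, 8.57 and 8.53 in wild type, with 8.61, 8.87 and 8.73 in ccr-1 and 5.85, 5.96 and 6.02 in HCT-RNAi, a fall of 2.65 ± 0.08 where ccr-1 was not called (0.14 ± 0.08, adjusted p = 0.131). Among synthesis genes, LOX3, LOX4 and AOC3 fell by 2.51, 2.22 and 1.89 and were particular to the line, and OPR3 fell by 1.08. LOX2, the lipoxygenase of chloroplasts, rose by 4.65 ± 0.07 and the methyltransferase gene JMT by 2.40 ± 0.08. Neither rise was particular to HCT-RNAi, and JMT rose by 2.62 in ccr-1.

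Targets of jasmonate were as divided. CORI3 (AT4G23600), a coronatine-induced cystine lyase gene, read 4.57, 4.93 and 5.06 in wild type and 12.25, 12.18 and 12.27 in HCT-RNAi. It read 10.3017 on each ccr-1 array (SD 0.0), so that group adds no spread to the SE. CORI3 rose by 7.38 ± 0.10 in HCT-RNAi and by 5.45 ± 0.10 in ccr-1. It met the rule for particular transcripts by its larger rise, at 1.93 ± 0.10 above ccr-1. The thionin gene THI2.1 rose by 4.57 ± 0.08, less than in ccr-1, where it rose by 6.48 ± 0.08. ORA59, a factor of the defence branch, and the chitin-binding protein gene PR4 fell by 2.37 ± 0.11 and 2.07 ± 0.07. TAT3 fell by 1.07 ± 0.13. None of these falls was particular to HCT-RNAi, and 4 of the 8 named targets fell at least 2-fold in ccr-1. MYC2, the main activator, was called lower at -0.83 ± 0.06, PR3 higher at 0.64 ± 0.05, and PDF1.2A was not called at 0.13 ± 0.06 (adjusted p = 0.097).

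Most named genes induced within minutes by touch, wounding or cold fell, with 10 of 12 at least 2-fold lower and 6 particular to HCT-RNAi. Their median was -1.88 (ccr-1, -0.93). The platform annotation named 1 of the 12, which changed by -2.66 and was particular to the line. Of probe sets named through the authors' table alone, 36.3% were lower by 2-fold and 13.2% were particular as lower. The calmodulin-like genes TCH3 and TCH2 fell by 3.13 ± 0.05 and 2.05 ± 0.06, and TCH4, an XTH, by 2.86 ± 0.06. TCH2 read 9.81, 9.74 and 9.81 in wild type, with 9.37, 9.36 and 9.36 in ccr-1 and 7.66, 7.77 and 7.79 in HCT-RNAi. RAV1 and RRTF1, transcription factor genes called present on no HCT-RNAi array, were at least 27.8-fold and 15.9-fold lower than in wild type (adjusted p = 2.21e-11 and 1.01e-13). TEM2, a relative of RAV1 that was likewise not present there, had means of 6.58 and 5.59 and was at least 1.99-fold lower (adjusted p = 1.8e-07). CBF3, a regulator of cold tolerance under clock control, went the other way: it read 5.27, 5.34 and 5.03 in wild type, with 5.07, 5.14 and 5.36 in ccr-1 and 7.61, 7.90 and 7.82 in HCT-RNAi, a rise of 2.56 ± 0.10. How the plants were handled at harvest is likewise not stated, and its part was not tested.

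Among all named transcripts, the fall that most set HCT-RNAi apart was that of ATX1 (AT1G66240), a relative of copper chaperones, and not that of HCT. It read 11.84, 11.82 and 11.92 in wild type and 11.85, 11.83 and 11.80 in ccr-1, which overlap, and 6.02, 6.02 and 5.99 in HCT-RNAi. No HCT-RNAi array called it present, so it was at least 57.7-fold lower than in wild type (adjusted p = 4.58e-15) and at least 56.4-fold lower than in ccr-1. AT5G19120, an aspartyl protease family gene, followed with 10.56, 10.62 and 10.65 in wild type, with 10.42, 10.40 and 10.39 in ccr-1 and 6.21, 6.26 and 6.30 in HCT-RNAi, a fall of 4.36 ± 0.05. Of the 15 transcripts that were most particular as lower, ranked by the smaller of the changes against the other groups, 4 belong to the darkness and starvation list (DIN10, AT3G15450, BGAL4 and BXL1), 1 is HCT and 1 is XTH30, which fell by 4.38 ± 0.08. The others, with no role given here, were AT1G15010, AT4G27654, AT1G49500, AT1G33055, AT1G72430, AT1G72060 and AT3G15630, with changes from -4.44 to -3.06. AT3G06070, of unknown function, was among the 10 largest falls against wild type at -4.52 ± 0.09.

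The 15 transcripts most particular as higher held genes already described: GPT2, PAP2, the starch genes APL4, ISA3 and SEX4, and the anthocyanin enzymes UGT75C1, UGT79B1 and 5MAT. XTH31 is of interest among the rest, since most XTH genes fell: it read 7.96, 7.89 and 7.83 in wild type, with 7.45, 7.39 and 7.63 in ccr-1 and 11.47, 11.46 and 11.30 in HCT-RNAi, a rise of 3.51 ± 0.07. NATA1, which acetylates ornithine and is induced by jasmonate, rose by 4.00 ± 0.06 and lay 3.38 ± 0.06 above ccr-1. The ATPase gene DAA1 rose by 4.11 ± 0.09. AT1G56300, a DnaJ-domain gene, and AT2G47880, a glutaredoxin family gene, rose by 3.84 and 4.64, and AT1G27030 and AT4G22490 by 3.93 and 3.78 on the log2 scale. The largest rises over all named transcripts also held ABCB16, at 5.60 ± 0.08, and AT1G80130 and AT5G52390, at 5.44 ± 0.06 and 5.39 ± 0.10. LTP2, a lipid transfer protein gene, and LEA7, a late embryogenesis abundant protein gene, rose by 5.10 ± 0.06 and 5.09 ± 0.08, and neither was above its level in ccr-1 (differences of -1.31 and -0.27).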

How the data were processed

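Each of the 9 arrays measured the RNA of 1 stem sample of HCT-RNAi, ccr-1 or wild type, 3 per group. The deposited values are RMA intensities on a linear scale, per the values and the submitters' processing notes, which name RMA and MAS5 without settings. RMA sets the arrays to like distributions, so a shift common to most transcripts would be hidden. The authors' deposited table holds the same intensities for 3785 probe sets with MAS5 detection calls and a ratio of group means, which was not used for results. Detection calls exist only for these probe sets.

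The log2 intensities of 22746 probe sets (64 controls left out) were fitted with limma 3.58.1 in R 4.3.3 (lmFit and eBayes on group means of all 9 arrays, with no batch term). P-values were adjusted by the Benjamini-Hochberg method over all probe sets. The test was tested on simulated data. Depth is not defined for arrays; the number of arrays limits precision.

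A name came from the platform annotation where it gave 1 gene (13129 probe sets) and otherwise from the authors' table (1755). Probe sets marked as shared between genes were not named. A transcript with no detection call of present in a group has only a bound there. That bound, given as "at least", sets the brighter mean against the higher of the dim probe set's own signal and the lowest signal called present. Genes were named by rule: in each list up to 6 of the largest changes, members against the list's majority, members not called in lists of up to 12 and genes opposite in ccr-1, and over all genes the 10 largest changes and the 15 most particular in each direction. The members and lists were chosen with earlier results of these data known. Alternatives were median centring, HCT-RNAi and wild-type arrays alone, an intensity trend, array weights, a filter on dim probe sets, platform names alone and leaving out each array. Sequences were not analysed here.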

Additional observations from a re-analysis of the deposited data

Results flagged for a closer look

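DIN1, a senescence gene induced by darkness, was lower in HCT-RNAi and higher in ccr-1 than in wild type. It read 7.01, 6.89 and 6.79 in wild type, 6.12, 5.68 and 5.70 in HCT-RNAi and 8.36, 8.28 and 8.20 in ccr-1, with no overlap between the groups. The changes against wild type were -1.06 and 1.39, and the direct contrast of the lines in limma gave -2.45 ± 0.11 on the log2 scale. The expansin gene EXPA8 was of the same kind, with -1.59 in HCT-RNAi, 1.82 in ccr-1 and -3.41 between the lines.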

How the results depend on the processing

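The 2-fold calls of HCT-RNAi against wild type (2469) lay between 2395 and 2514 under all alternatives run, with 2462 to 2503 when any array of these groups was left out. All calls (13783) ranged from 12365 with the filter on dim probe sets to 15469 with median centring, which lowered the HCT-RNAi values by 0.0999 at the median against wild type and moved the calls from 7476 higher and 6307 lower to 6104 and 9365. Transcripts particular to the line numbered 263 higher and 517 lower with median centring, and 331 to 347 and 438 to 450 with an array left out. Leaving out ccr-1 arrays was added after the data were seen. With platform names alone, which leaves fewer genes by construction, the members called at 2-fold over all lists numbered 23 higher and 24 lower in place of 66 and 145. Of 326 named genes, 310 kept their direction and their side of the threshold under median centring.

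Every change of sign was in a gene that was not called. TPPI and IVD came to -0.0087 and -0.0063 with median centring. CWINV4 came to 0.0033 with array weights. With 1 array left out in turn, CWINV4 ranged from -0.0634 to 0.0391, D2HGDH from -0.0882 to 0.0049, SESA2 from -0.0609 to 0.0207, PR1 from -0.1396 to 0.0412, VI1 from -0.0354 to 0.0016 and CRA1 from -0.1898 to 0.0144. No paired analysis was possible because the replicate numbers run from 1 to 9 without repeats across groups.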

Other observations

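Gene families were read from the symbols after the values were seen, so their counts are a description. Some of their members, such as FLA12, XTH4 and SWEET4, also belong to the lists above. All names of the AGP, FLA and UMAMIT families and 13 of the 22 XTH names came through the authors' table, which was selected for change. Among probe sets named that way, 36.3% were lower by the 2-fold rule and 13.2% were particular as lower. Of 19 named AGP genes, which encode arabinogalactan proteins, 10 fell at least 2-fold and 1, AGP2, rose (1.54 ± 0.07), and 10 met the rule for transcripts particular to HCT-RNAi. AGP22 read 10.18, 10.20 and 10.15 in wild type, with 8.95, 8.66 and 8.80 in ccr-1 and 5.84, 6.03 and 6.38 in HCT-RNAi, a change of -4.09 ± 0.11. AGP14 fell by 1.15 ± 0.06 in HCT-RNAi and rose by 1.89 ± 0.06 in ccr-1. Of 12 named fasciclin-like genes, 9 fell at least 2-fold, with FLA9 at -4.00 ± 0.06 and FLA2 at -3.51 ± 0.06. Over all 22 named XTH genes, 12 fell and 1, XTH31, rose. XTH6 fell by 3.35 ± 0.06.

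Families of amino acid and sugar transporters held rises and falls, and glycosyltransferases held more rises than falls. The UMAMIT family, which includes amino acid exporters, had 5 of 13 named genes higher and 3 lower, and 4 of the rises were particular to HCT-RNAi. All 13 names came through the authors' table alone, where 30.9% of probe sets were higher, 36.3% lower and 9.0% particular as higher. UMAMIT29 read 7.95, 7.93 and 7.91 in wild type, with 9.37, 9.49 and 9.44 in ccr-1 and 11.27, 11.31 and 11.29 in HCT-RNAi. All 14 SWEET sugar transporter genes were named by the platform annotation, with 5 higher and 3 lower. Among all probe sets named that way, 4.17% were higher and 4.83% lower. None of the 5 SWEET rises was particular to HCT-RNAi, and 1 of the falls was. SWEET13 rose by 3.22 ± 0.07 and SWEET2 fell by 1.70 ± 0.08. Of 51 UGT genes, 4 of them named through the authors' table, 13 rose and 1 fell. Among the 13 rises, 6 were particular to HCT-RNAi. Of those that rose, some act on phenylpropanoids: UGT84A2, the sinapate glucosyltransferase, at 3.35 ± 0.10, and the monolignol glucosyltransferases UGT72E1 and UGT72E2 at 2.70 ± 0.09 and 1.60 ± 0.08. UGT72E2 was not called in ccr-1 (0.01 ± 0.08).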
